A study of Homo sapiens with 12 samples.

Results

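The insulin-like growth factor (IGF) axis was examined in 2 established uterine leiomyosarcoma (uLMS) cell lines through 10 genes, the ligands IGF1 and IGF2, the receptors IGF1R and IGF2R, and the binding proteins IGFBP2 to IGFBP7. The members were selected by their gene symbols, which picked 10 of the 60649 genes in the count table. The family itself was selected on a measured value, the level of IGFBP5 in SK-LMS-1. The libraries behind it were those of the drug combination and the DMSO libraries with the same number (set 4). IGFBP5 is therefore described and not tested in every comparison of those libraries. Its spread was still estimated over all libraries, so the IGFBP5 tests that remain draw in part on the values that chose the family. With edgeR's filter on low counts, 9 of the members were among the 21114 genes tested, and IGF1 was not.

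RNA was sequenced from 12 libraries. SK-UT-1B is a line from a primary uLMS, and SK-LMS-1 is a line from a vulvar metastasis of uLMS, so each group is a culture of 1 line and the lines stand for 1 tumor each. Both lines are labelled wild type and were exposed for 72 h. SK-UT-1B received DMSO, the vehicle (2 libraries), or a combination in which gemcitabine and docetaxel were added to MK-0752 (2 libraries). SK-LMS-1 received DMSO (4 libraries), MK-0752 alone (2 libraries), or the combination (2 libraries). MK-0752 blocks gamma secretase, a protease needed to activate Notch receptors. The chemotherapy drugs added to it were gemcitabine, a cytidine analog, and docetaxel, a taxane. Each treatment was given at its own IC30, a partly inhibitory concentration, so the concentration of MK-0752 was lower in the combination than alone. The IC30 was also set for each line, and every drug of the combination was at a lower concentration in SK-UT-1B than in SK-LMS-1. Differences between the lines after the combination, or in its effects, therefore cannot be told apart from dose. The titles of the SK-LMS-1 libraries carry a number, 2 or 4, which is called a set here. MK-0752 (set 2) was compared with DMSO set 2 and the combination (set 4) with DMSO set 4. In SK-UT-1B, the DMSO libraries carry the number 4 and the combination libraries the number 3. The labels do not say what the numbers mean. In SK-UT-1B they cannot be told apart from treatment, and between the combination libraries of the lines they cannot be told apart from the line. Nothing in the labels says that the libraries of a group were separate cultures, and the p-values measure only the spread between these libraries.

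IGF1 and IGF2 are secreted ligands that signal through IGF1R, a receptor tyrosine kinase, while IGF2R takes up IGF2 and carries it to lysosomes, and also sorts lysosomal enzymes. The IGF binding proteins hold the ligands outside the cell, extend their lifetime, and keep them from or deliver them to the receptor, until proteases such as the pappalysins cut them. In smooth muscle, IGF signaling promotes growth and survival, and several binding proteins are made by the muscle cells themselves.

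Total counts on genes lay between 25250057 and 40709885 per library, and expression is given as CPM, counts scaled to library size with edgeR's TMM factors. In bulk RNA, fewer cells of a kind and less RNA per cell cannot be told apart. Among genes expected at 5 to 500 counts from the other libraries of the same line, between 17.4% and 34.6% were at 0 in a given library, so single zeros at low levels carry little information. A gene at or under 3 counts in every library of a group was taken as not detectable, and its fold is given as a lower bound. Where such a gene was tested, it passed edgeR's filter only through other groups, so its adjusted p gives no support beyond the counts themselves. Depending on the library, 3 counts equal 0.0777 to 0.123 CPM. Such bounds cover counting error only, since no molecular identifiers mark duplicate reads. The smooth muscle markers ACTA2, CALD1, and SMTN were over 1 CPM in every library of both lines, while MYH11 and MYOCD were under 1 CPM in every library. The summed level of the 10 smooth muscle markers was 85 to 124 CPM in SK-UT-1B and 543 to 626 CPM in SK-LMS-1. Against this sum, DES, the muscle intermediate filament desmin, was at 5.33 to 9.76 CPM in SK-UT-1B after DMSO and at 1.37 to 5.15 CPM after the combination, and at 0 in every SK-LMS-1 library. The summed level of 10 epithelial, endothelial, and blood markers was 0.318 to 3.15 CPM in SK-UT-1B and 172 to 269 CPM in SK-LMS-1, where KRT8, KRT18, KRT19, and PECAM1 exceeded 1 CPM in every library and CDH1 and VWF stayed under it. These marker levels move with the line, and their part in the line differences of the IGF axis was not tested.

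IGFBP5 and IGFBP2 are neighbors on chromosome 2 of hg38, where they point toward each other and their ends lie 7668 bases apart. IGFBP2 (ENSG00000115457.10) lies on the plus strand at chr2:216632828-216664436, and IGFBP5 (ENSG00000115461.5) on the minus strand at chr2:216672105-216695549. IGFBP4 (ENSG00000141753.7) lies on the plus strand at chr17:40443450-40457725. The 250 bases before the start of each are shown because IGFBP5 is the member whose level differed between drug and vehicle in SK-LMS-1, IGFBP2 is its neighbor and was not detectable in SK-LMS-1, and IGFBP4 had the highest level per kb. They were read 5′ to 3′ on the strand of the gene from RefSeq on GRCh38.p14, where 8 of the 10 members were matched by symbol in the promoter table used here, and capitals mark matches to the motifs searched. IGFBP2 has 3 entries in that table, and the window before the first is shown. The windows are chr2:216695550-216695799 (minus strand) for IGFBP5, chr2:216632578-216632827 (plus strand) for IGFBP2, and chr17:40443200-40443449 (plus strand) for IGFBP4.
IGFBP5: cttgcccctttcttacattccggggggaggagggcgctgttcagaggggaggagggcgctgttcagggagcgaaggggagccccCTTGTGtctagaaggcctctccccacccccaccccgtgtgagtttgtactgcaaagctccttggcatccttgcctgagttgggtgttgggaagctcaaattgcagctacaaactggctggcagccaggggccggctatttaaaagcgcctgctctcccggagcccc
IGFBP2: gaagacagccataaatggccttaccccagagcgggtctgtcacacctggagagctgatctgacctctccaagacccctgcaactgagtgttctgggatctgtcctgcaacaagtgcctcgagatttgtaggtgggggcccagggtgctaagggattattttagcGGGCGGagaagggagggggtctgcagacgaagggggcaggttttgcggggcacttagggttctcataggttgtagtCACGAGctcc
IGFBP4: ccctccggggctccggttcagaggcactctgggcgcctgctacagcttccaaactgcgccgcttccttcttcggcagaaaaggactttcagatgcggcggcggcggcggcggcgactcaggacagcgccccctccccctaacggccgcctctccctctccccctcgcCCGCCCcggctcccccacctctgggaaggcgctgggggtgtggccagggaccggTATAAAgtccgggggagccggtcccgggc

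Both strands were searched for a TATA box (TATAAA), a GC box (GGGCGG), the motif of RBPJ, the DNA-binding partner of Notch (GTGGGAA), the N box bound by HES proteins (CACNAG), and the AP-1 motif (TGANTCA). The IGFBP5 window held 1 match, an N box on the opposite strand that begins 166 bases before the start. The IGFBP2 window shown held a GC box 86 bases and an N box 10 bases before the start, while of the windows of the other entries 1 held a GC box 49 bases before its start and no N box, and 1 held no match. The IGFBP4 window held a TATA box 29 bases before the start and a GC box on the opposite strand 83 bases before it. Of 35116 RefSeq windows of the same length, 10.7% held the TATA box, 42.6% the GC box, 5.43% the RBPJ motif, 32.0% the N box, and 6.57% the AP-1 motif. N boxes were also found before IGFBP3, and neither the RBPJ nor the AP-1 letters occurred in any window of the 8 members. A match describes the letters and is not a binding site.

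The lines differed in most of the axis after vehicle. SK-LMS-1 carried more receptor RNA and more IGFBP3, IGFBP6, and IGFBP7, while SK-UT-1B carried IGFBP2 and IGF2, which were not detectable in SK-LMS-1, and more IGFBP5. IGFBP5 was left out of the tests between the lines, which leaves 8 members tested. After DMSO, 7 of the 8 were differentially expressed (absolute log2FC no smaller than 1, with a Benjamini-Hochberg adjusted p over all genes under 0.05), 5 higher and 2 lower in SK-LMS-1. Of all genes tested, 31.1% met the same thresholds. After the combination, 7 of the 8 did, 5 higher and 2 lower in SK-LMS-1, where 25.4% of all genes did. In both comparisons the 2 lower were IGFBP2 and IGF2, which passed the filter on low counts only through SK-UT-1B. The DMSO libraries of the lines and their combination libraries are separate libraries, but each line is a single source for both comparisons.

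**Figure D1:**
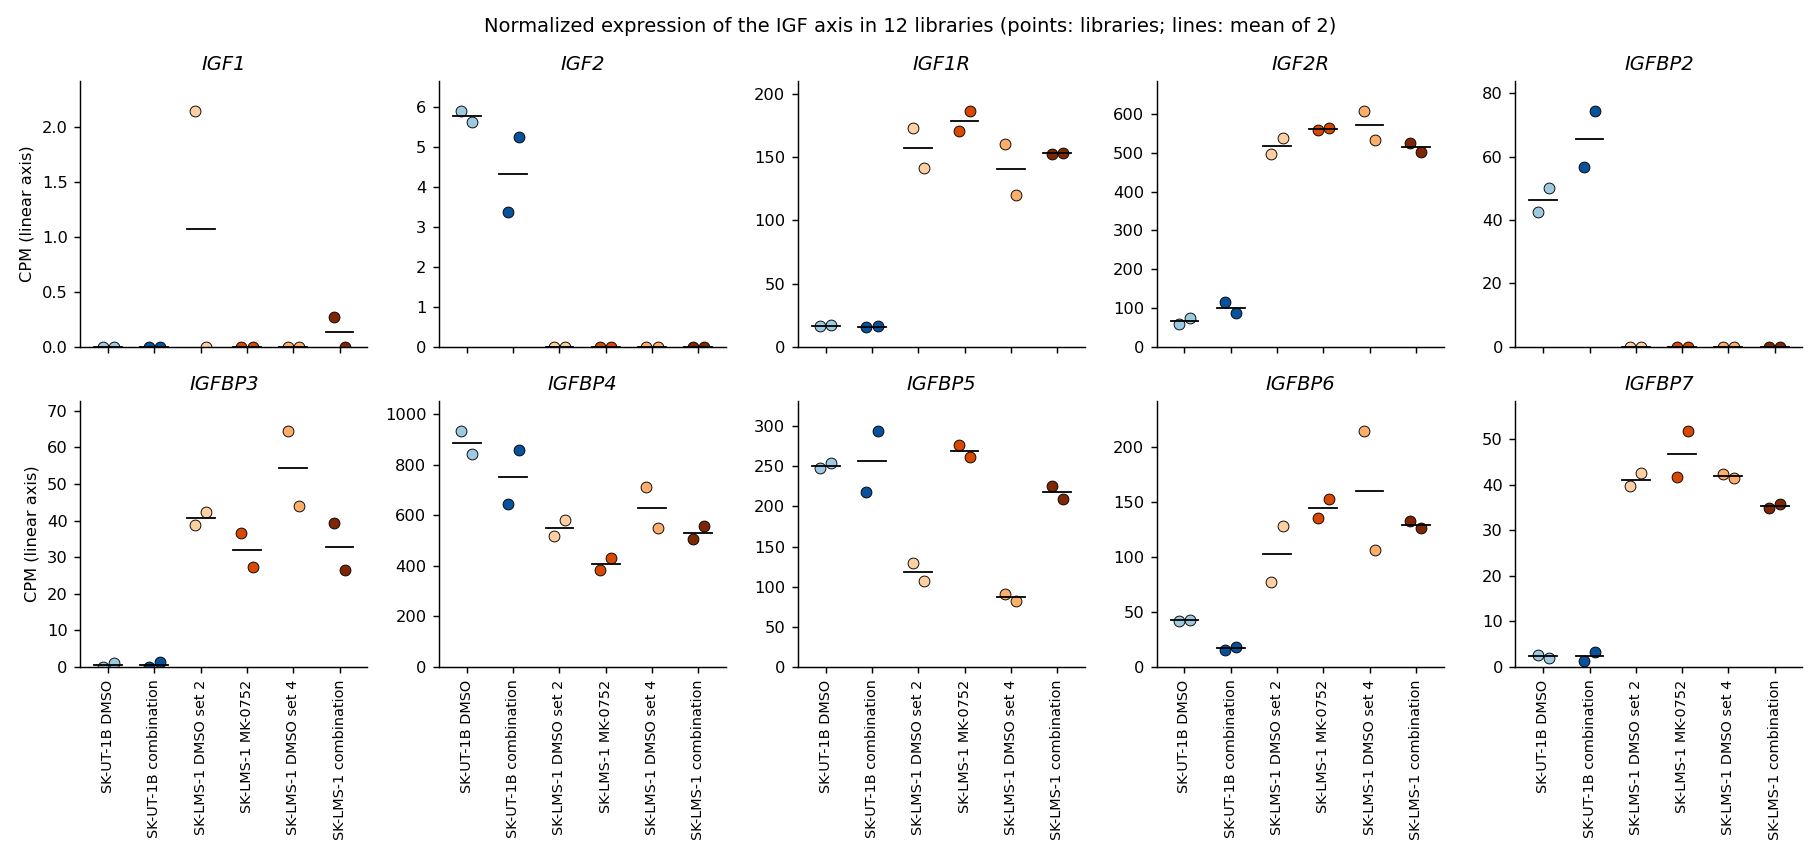
Normalized expression (CPM, linear axis from 0, a scale of its own in each panel) of the 10 members in the 12 libraries. Points are libraries and lines are means of 2 libraries. IGF2 and IGFBP2 are at 0 in all 8 SK-LMS-1 libraries, IGF1R, IGF2R, IGFBP3, IGFBP6, and IGFBP7 are higher in every SK-LMS-1 library than in any SK-UT-1B library, and IGFBP5 is higher in the 4 treated SK-LMS-1 libraries than in the 4 DMSO libraries.

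Of the ligands, IGF2 was detected in SK-UT-1B alone and IGF1 in single libraries of SK-LMS-1. IGF2 (ENSG00000167244.21, minus strand, chr11:2129112-2158391) had 171 and 212 counts in the SK-UT-1B DMSO libraries and 124 and 148 after the combination, which is 5.92, 5.62, 3.39, and 5.25 CPM. It had 0 counts in all 8 SK-LMS-1 libraries. The lines did not overlap, and after DMSO the SK-LMS-1 level of IGF2 was at least 58.6-fold lower (adjusted p = 0.000112). After the combination it was at least 40.5-fold lower (adjusted p = 0.00316). Genes on the same strand, among them INS-IGF2 and MIR483, share 43.2% of the exon length of IGF2, so the count is uncertain. INS-IGF2 itself had 0 counts in all 12 libraries, which does not show how reads in the shared bases were counted. H19, the noncoding RNA next to IGF2, was at most 0.181 CPM in any group.

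IGF1 (ENSG00000017427.17, minus strand, chr12:102395874-102481744) had 75 counts (2.15 CPM) in 1 library, SK-LMS-1 DMSO set 2 replicate 1. It had 9 counts (0.27 CPM) in SK-LMS-1 combination replicate 1 and 0 counts in the other 10 libraries. No group was above detection in both of its libraries. Other genes on the opposite strand cover 82.5% of its exon length, and the strand setting of the counts is not given in the sources used here.

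Both receptors were higher in SK-LMS-1. IGF1R (ENSG00000140443.15, plus strand, chr15:98648539-98964530), the signaling receptor, was at 16.4 and 17.2 CPM in SK-UT-1B after DMSO and at 15.6 and 16.3 CPM after the combination. In SK-LMS-1 it was at 173 and 142 CPM in DMSO set 2, 161 and 121 CPM in DMSO set 4, 171 and 187 CPM after MK-0752, and 153 and 154 CPM after the combination. Every SK-LMS-1 library lay above every SK-UT-1B library. In SK-LMS-1, IGF1R was 8.86-fold higher after DMSO (log2FC 3.14, SE 0.18, adjusted p = 2.63e-11) and 9.60-fold higher after the combination (log2FC 3.26, SE 0.20, adjusted p = 4.88e-11). Within a line no treatment moved it past the thresholds, with log2FC of -0.08 in SK-UT-1B, 0.18 after MK-0752, and 0.12 after the combination in SK-LMS-1. The last of these had a 95% interval of -0.248 to 0.494.

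IGF2R (ENSG00000197081.16, plus strand, chr6:159969082-160113507), the uptake receptor of IGF2, was at 59.0 and 74.7 CPM in SK-UT-1B after DMSO and at 115 and 87.2 CPM after the combination. In SK-LMS-1 it was at 497 and 539 CPM in DMSO set 2, 609 and 533 CPM in DMSO set 4, 560.3 and 565 CPM after MK-0752, and 527 and 503 CPM after the combination. The lines did not overlap, and in SK-LMS-1 IGF2R was 8.15-fold higher after DMSO (log2FC 3.02, SE 0.16, adjusted p = 6.76e-12) and 5.09-fold higher after the combination (log2FC 2.35, SE 0.17, adjusted p = 7.08e-10). In SK-UT-1B both combination libraries lay above both DMSO libraries, but the difference did not pass the test (log2FC 0.60, SE 0.16, adjusted p = 0.107). DESeq2 gave an adjusted p of 0.0145 and edgeR with no filter beyond 1 count 0.017, in both below the fold threshold of 1. With 1 library left out the log2FC ranged over 0.35 to 0.78, with edgeR's adjusted p at 0.00226 without combination replicate 3 and 0.647 without combination replicate 1. The combination effect in SK-UT-1B minus that in SK-LMS-1 was 0.75 (SE 0.22, adjusted p = 0.361), which did not pass either. With 1 library left out this difference ranged over 0.54 to 0.93, below the fold threshold throughout.

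Among the binding proteins, IGFBP2 separated the lines fully. IGFBP2, which binds IGF2 more tightly than IGF1 and also binds integrins, was at 42.6 and 50.1 CPM in SK-UT-1B after DMSO and at 56.7 and 74.6 CPM after the combination. All 8 SK-LMS-1 libraries had 0 counts. The SK-LMS-1 level was at least 470.4-fold lower after DMSO (adjusted p = 9.21e-12) and, after the combination, at least 616-fold lower (adjusted p = 4.51e-10). In SK-UT-1B the combination libraries lay above the DMSO libraries, with a log2FC of 0.50 (SE 0.34, adjusted p = 0.692) that did not pass the test.

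IGFBP3 and IGFBP7 had the reverse pattern. IGFBP3 (ENSG00000146674.16, minus strand, chr7:45912245-45921874), the main carrier of IGFs in blood, had 0 and 39 counts in the SK-UT-1B DMSO libraries and 2 and 35 after the combination, at most 1.24 CPM. In SK-LMS-1 it was at 38.9 and 42.4 CPM in DMSO set 2, 64.6 and 44 CPM in DMSO set 4, 36.7 and 27.4 CPM after MK-0752, and 39.4 and 26.4 CPM after the combination. It was higher in SK-LMS-1 after DMSO (log2FC 6.40, SE 1.31, adjusted p = 0.00691), with a range of 5.44 to 13.54 when 1 library was left out. It was also higher after the combination (log2FC 5.74, SE 1.32, adjusted p = 0.0146). Without SK-LMS-1 combination replicate 1, the latter was 5.41 with an adjusted p of 0.0554, and over each library left out in turn it ranged from 4.69 (without SK-UT-1B combination replicate 1) to 9.14 (without replicate 3 of that group, which leaves a library with 2 counts). IGFBP1, which lies 18584 bases from IGFBP3 on the other strand, was at most 0.03 CPM in any group.

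IGFBP7 (ENSG00000163453.11, minus strand, chr4:57030773-57110385), which binds IGFs weakly and is a matrix protein of vessels and muscle, was at 2.63 and 1.963 CPM in SK-UT-1B after DMSO and at 1.39 and 3.34 CPM after the combination. In SK-LMS-1 its lowest, median, and highest levels over 8 libraries were 35.0, 41.6, and 51.9 CPM. The lines did not overlap, and in SK-LMS-1 IGFBP7 was 18.1-fold higher after DMSO (log2FC 4.18, SE 0.35, adjusted p = 6.32e-09) and 14.95-fold higher after the combination (log2FC 3.92, SE 0.36, adjusted p = 3.72e-08). With 1 library left out, the log2FC after the combination ranged over 3.38 to 4.66. Genes on the opposite strand cover 18.3% of its exon length.

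IGFBP4, which inhibits IGF action and is cut by the pappalysin PAPPA, was the member with the highest level per kb in both lines. It was at 935 and 841 CPM in SK-UT-1B after DMSO and at 646 and 857 CPM after the combination. In SK-LMS-1 it was at 518 and 579 CPM in DMSO set 2, 712 and 549 CPM in DMSO set 4, 382 and 431 CPM after MK-0752, and 506 and 557 CPM after the combination. In SK-LMS-1, IGFBP4 was 1.51-fold lower after DMSO (log2FC -0.59, SE 0.14, adjusted p = 0.00136) and 1.41-fold lower after the combination (log2FC -0.50, SE 0.16, adjusted p = 0.0207), below the fold threshold in both. With 1 library left out, the log2FC between the lines after the combination ranged over -0.71 to -0.28. After MK-0752 both libraries lay below every DMSO library of the line, with a log2FC of -0.43 (SE 0.16, adjusted p = 0.517) that did not pass the test.

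IGFBP6 (ENSG00000167779.9, plus strand, chr12:53097436-53102345), which prefers IGF2 to IGF1, was at 41.9 and 43.1 CPM in SK-UT-1B after DMSO and at 15.7 and 18.0 CPM after the combination. In SK-LMS-1 it was at 77.5 and 128 CPM in DMSO set 2, 215 and 106 CPM in DMSO set 4, 136 and 153 CPM after MK-0752, and 132 and 126 CPM after the combination. The DMSO libraries of SK-LMS-1 spanned the levels of both treatments, while in SK-UT-1B the groups lay apart. In SK-LMS-1, IGFBP6 was 3.09-fold higher after DMSO (log2FC 1.59, SE 0.27, adjusted p = 0.000209) and 7.67-fold higher after the combination (log2FC 2.94, SE 0.31, adjusted p = 3.24e-06). In SK-UT-1B the combination libraries were 2.53-fold lower (log2FC -1.34, SE 0.29), with an adjusted p of 0.0618 in edgeR and of 0.00146 in DESeq2. The effects of the combination in the lines differed by -1.03 (SE 0.41, adjusted p = 0.600), which did not pass the test. This difference was -1.62 (adjusted p = 0.0938) without SK-LMS-1 DMSO set 4 replicate 1 and -0.60 (adjusted p = 0.602) without replicate 2 of that set. With no filter beyond 1 count it was -1.0 with an adjusted p of 0.0356.

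IGFBP5, a binding protein that attaches to extracellular matrix and bone mineral, was the member in which SK-LMS-1 differed between drug and vehicle. In SK-LMS-1 it was at 129 and 107 CPM in DMSO set 2 and at 276 and 262 CPM after MK-0752. It was at 91.0 and 82.3 CPM in DMSO set 4 and at 226 and 209 CPM after the combination. Both treated groups lay above all 4 DMSO libraries. IGFBP5 was 2.28-fold higher after MK-0752 (log2FC 1.19, SE 0.17, edgeR's adjusted p = 0.00169), and without DMSO set 2 replicate 3 the log2FC was 1.06 with an adjusted p of 0.0596. After the combination it was 2.51-fold higher (log2FC 1.33, SE 0.17), the contrast on which the family was chosen and which was not tested.

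In SK-UT-1B, IGFBP5 was at 248 and 254 CPM after DMSO and at 218 and 294 CPM after the combination. The groups overlapped, and the log2FC was 0.03 (SE 0.17, adjusted p = 1), with a 95% interval of -0.313 to 0.377. The DMSO sets of SK-LMS-1 did not overlap with each other, with a log2FC of -0.45 (SE 0.17) for set 4 over set 2. The MK-0752 effect minus the combination effect was -0.14 (SE 0.23). Both values use DMSO set 4 and are descriptions.

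The line difference in IGFBP5 is described without a test, since it uses the values that chose the family. In the DMSO libraries, IGFBP5 was 2.45-fold lower in SK-LMS-1 (log2FC -1.31, SE 0.14), and no SK-LMS-1 DMSO library reached an SK-UT-1B library. After the combination the lines overlapped, with a log2FC of -0.24 (SE 0.17) and a 95% interval of -0.583 to 0.108. The difference between the lines' combination effects was -1.30 (SE 0.23). DIRC3-AS1 on the opposite strand covers 7.53% of the exon length of IGFBP5.

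**Figure D2:**
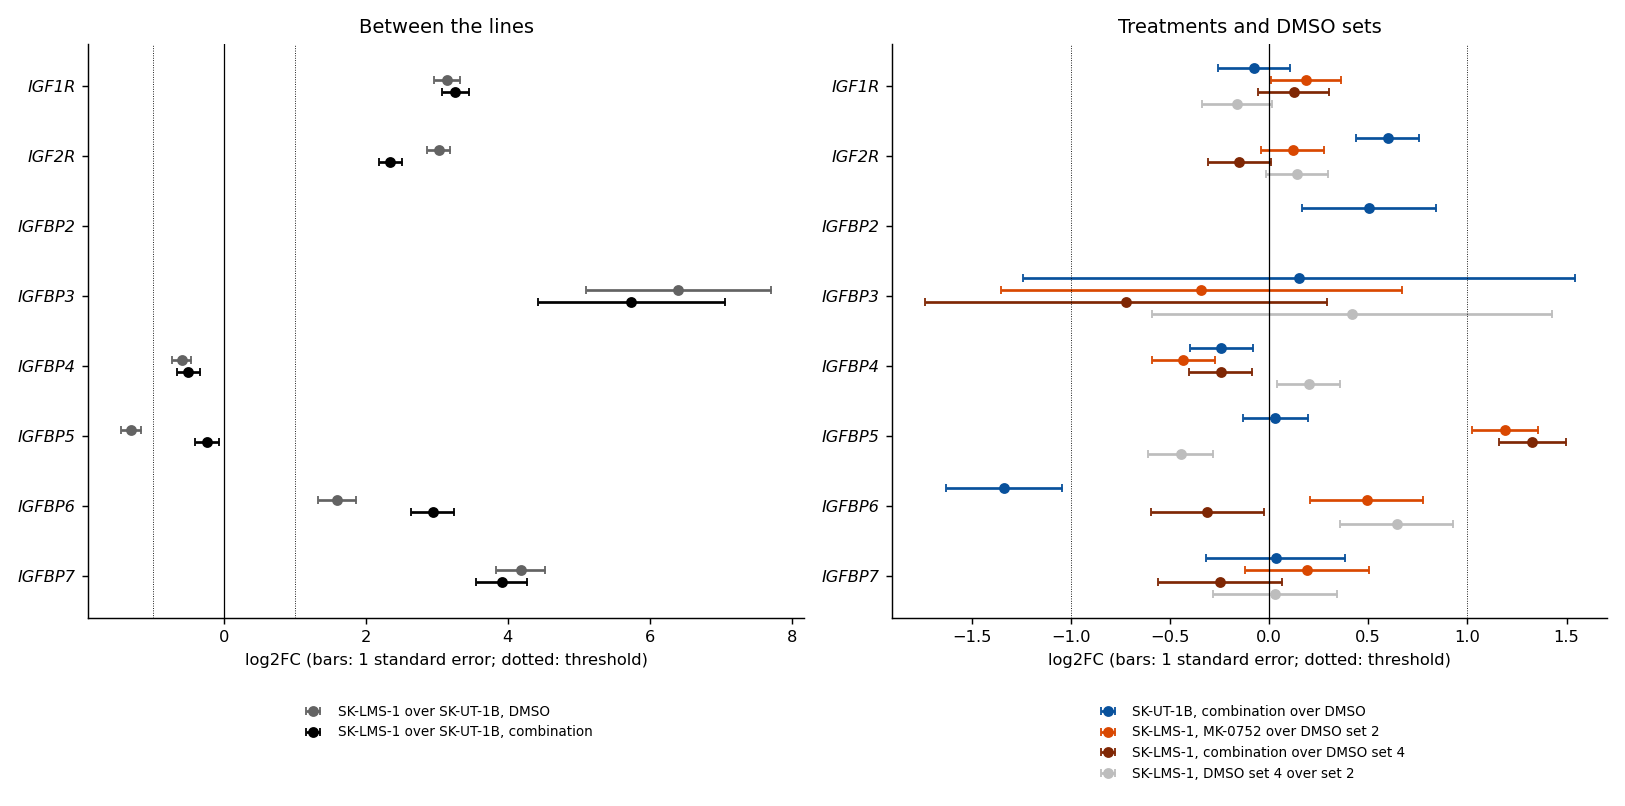
log2FC with 1 SE of 8 members between the lines and in the treatment and DMSO set comparisons. Dotted lines mark the threshold of 1, and members at or under 3 counts throughout 1 group have no point. Between the lines IGF1R, IGF2R, IGFBP3, IGFBP6, and IGFBP7 lie to the right of 1, and among treatments only IGFBP5 in both SK-LMS-1 treatments and IGFBP6 in SK-UT-1B lie past the threshold, the latter with an adjusted p of 0.0618.

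Members called in the treatment and DMSO set comparisons are counted here beside the shares of all genes. The counts were not tested against these shares. IGFBP2 and IGF2 are included in these counts but had 0 counts in every SK-LMS-1 library. They therefore had no value within SK-LMS-1 or in the difference of the lines' combination effects, and could not be called there. After MK-0752 in SK-LMS-1, 1 of the 9 members tested was differentially expressed, IGFBP5, while 0.251% of all genes were. At an unadjusted p under 0.05 edgeR found 2 (IGFBP4 and IGFBP5), against 6.41% of all genes. After the combination in SK-LMS-1, where IGFBP5 was not tested, edgeR found 0 of the other 8 members, 0 at an unadjusted p under 0.05, and DESeq2 found 0, while 0.0237% and 4.33% of all genes were past the thresholds and at an unadjusted p under 0.05 with edgeR. After the combination in SK-UT-1B, edgeR found 0 of 9, with 2 members (IGFBP6 and IGF2R) at an unadjusted p under 0.05, and DESeq2 found 1 (IGFBP6). Of all genes, edgeR found 0.559% differentially expressed and 10.5% at an unadjusted p under 0.05. The combination effects differed between the lines for 0 of 8 members with edgeR, 2 (IGFBP6 and IGF2R) at an unadjusted p under 0.05, and 0 with DESeq2, against 0.232% and 7.67% of all genes. The MK-0752 effect differed from the combination effect in SK-LMS-1 for 0 of 8 members with edgeR, 0 at an unadjusted p under 0.05, and 0 with DESeq2, against 0.0379% of all genes past the thresholds and 5.18% at an unadjusted p under 0.05. Between the DMSO sets of SK-LMS-1, edgeR and DESeq2 found 0 of 8, with 1 (IGFBP6) at an unadjusted p under 0.05. Of all genes, edgeR found 0% past the thresholds and 5.67% at an unadjusted p under 0.05.

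Levels of different genes were compared per kb of exon, within each line and treatment. In the 2 SK-UT-1B DMSO libraries the order began with IGFBP4 at a mean of 403 CPM per kb (381 to 424), IGFBP5 at 38.8 (38.3 to 39.2), IGFBP6 at 31.6 (31.15 to 32.0), and IGFBP2 at 9.77 (8.98 to 10.6). It went on with IGF2R at 2.95 (2.61 to 3.30), IGF1R at 1.21 (1.18 to 1.24), IGFBP7 at 1.19 (1.02 to 1.36), and IGF2 at 0.808 (0.787 to 0.828), with IGFBP3 and IGF1 last. IGF1R and IGFBP7 overlapped, and the other neighbors down to IGF2 did not. After the combination IGFBP2 (11.96 to 15.7) and IGFBP6 (11.65 to 13.3) changed places by their means and overlapped, and IGFBP7 at 1.23 (0.722 to 1.73) overlapped with IGF1R and IGF2.

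In the 4 SK-LMS-1 DMSO libraries the order began with IGFBP4 at a mean of 267 CPM per kb (235 to 323) and IGFBP6 at 97.6 (57.6 to 159.5), whose ranges did not overlap. IGF2R at 24.1 (22.0 to 26.9), IGFBP7 at 21.5 (20.6 to 22.03), and IGFBP5 at 15.8 (12.7 to 19.96) followed, where IGF2R and IGFBP7 overlapped and IGFBP5 lay below both. IGF1R at 10.7 (8.64 to 12.4) and IGFBP3 at 10.4 (8.50 to 14.1) overlapped as well, and IGF1, IGF2, and IGFBP2 came last. After treatment IGFBP5 stood next after IGFBP6, at 41.6 CPM per kb (40.5 to 42.7) after MK-0752 and at 33.6 (32.4 to 34.9) after the combination, above IGF2R in all 4 treated libraries.

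The make-up of the binding protein RNA was computed as the share of each of IGFBP2 to IGFBP7 in their summed CPM per kb. The sum itself was of like size in both lines, 351 to 504 CPM per kb in the 4 SK-UT-1B libraries and 342 to 533 in the 8 SK-LMS-1 libraries. IGFBP4 made up 82.1% to 84.2% in SK-UT-1B and 60.6% to 68.8% in the 4 SK-LMS-1 DMSO libraries. IGFBP6 made up 2.87% to 6.89% in SK-UT-1B and 16.9% to 29.9% in SK-LMS-1 DMSO. IGFBP6 ranked next after IGFBP4 in all 8 SK-LMS-1 libraries, and IGFBP5 did in all 4 SK-UT-1B libraries. After MK-0752 the share of IGFBP4 was 50.03% and 51.1%, below all 4 DMSO libraries of the line, and that of IGFBP5 was 12.3% and 10.6%, above the 2.64% to 5.84% of those libraries. After the combination in SK-LMS-1 the share of IGFBP5 was 8.96% and 8.03% and that of IGFBP4 was 59.0% and 62.7%, the latter overlapping with DMSO. Shares of 1 sum move against each other, and they were not tested.

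**Figure D3:**
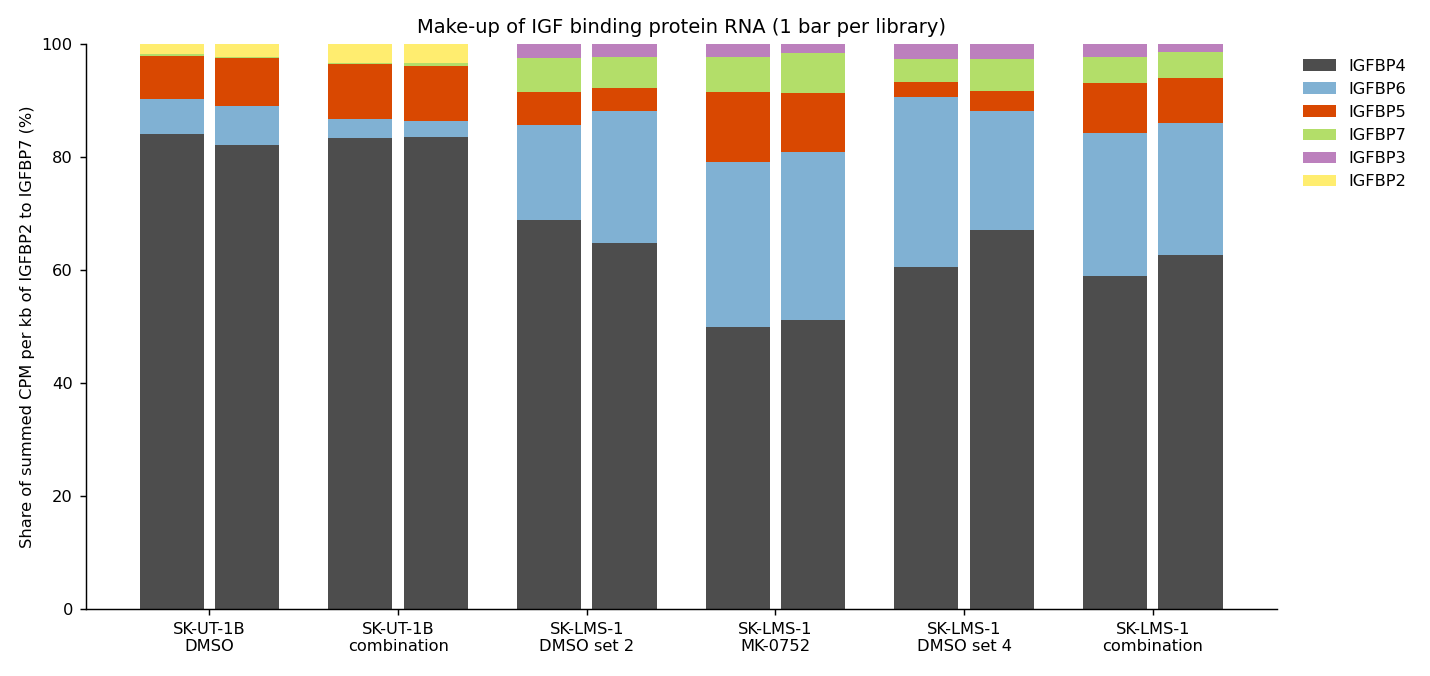
Share of IGFBP2 to IGFBP7 in their summed CPM per kb of exon, 1 bar per library (2 per group). IGFBP4 is the largest part in every library, IGFBP2 appears only in the 4 SK-UT-1B bars, IGFBP6, IGFBP7, and IGFBP3 are larger in the 8 SK-LMS-1 bars, and IGFBP5 takes 10.6% and 12.3% after MK-0752 against 2.64% to 5.84% in the SK-LMS-1 DMSO bars.

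Other genes that act on IGFs were taken from lists of proteases, of proteins with an IGFBP-type module or that bind IGFBPs, of insulin and IGF signaling, and of regulators of IGF2 and its RNA. The shares of all tested genes called higher in SK-LMS-1 were 17% (DMSO) and 15.6% (combination), and those called lower were 14.1% and 9.88%. The counts of each list stand beside these shares without a test. Of 11 proteases and their inhibitors tested, 8 were higher and 1 was lower in SK-LMS-1 after DMSO, with a median log2FC of 4.01 where the median of all genes was 0. PAPPA2, the pappalysin that cuts IGFBP3 and IGFBP5, was at 30.4 to 41.6 CPM in SK-LMS-1 and at 0 in SK-UT-1B, at least 391-fold higher (adjusted p = 1.70e-11). STC1, a stanniocalcin that inhibits the pappalysins, was at 711 to 808 CPM in SK-LMS-1 and at most 0.53 CPM in SK-UT-1B (adjusted p = 9.75e-07). ADAM12, a metalloprotease reported to cut IGFBP3 and IGFBP5, was at 36.1 to 50.8 CPM and at most 0.822 CPM (adjusted p = 0.0086). After the combination 7 of the proteases and inhibitors were higher and 1 was lower in SK-LMS-1.

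Of 11 tested proteins with an IGFBP-type module or that bind IGFBPs, 8 were higher and 1 was lower in SK-LMS-1 after DMSO (median log2FC 3.68). The lower one was IGFBPL1, an IGFBP-like protein, at 29.8 to 33.2 CPM in SK-UT-1B and 0 in SK-LMS-1, at least 320-fold lower (adjusted p = 1.21e-09). CCN1, a matrix-associated growth regulator, was at 603 to 717 CPM in SK-LMS-1 and at most 0.477 CPM in SK-UT-1B (adjusted p = 1.72e-07). ESM1, an endothelial proteoglycan with an IGFBP module, was at 20.5 to 32.0 CPM and at 0, at least 291-fold higher (adjusted p = 3.48e-10). After the combination 7 were higher and 1 was lower.

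Of 31 tested genes of insulin and IGF signaling, 8 were higher and 2 were lower in SK-LMS-1 after DMSO (median log2FC 0.49), where 31.1% of all genes differed in either direction, and 9 and 2 after the combination. GRB10, an adaptor that dampens IGF1R and insulin receptor signaling, was 9.72-fold higher (log2FC 3.28, SE 0.55, adjusted p = 0.00169), and INPPL1, a lipid phosphatase that acts on the product of PI3K, was 5.85-fold higher (log2FC 2.53, SE 0.20, adjusted p = 3.16e-09). PIK3R3, a regulatory subunit of PI3K, was 7.05-fold lower (log2FC -2.84, SE 0.28, adjusted p = 9.64e-08). Of 8 tested regulators of IGF2 and its RNA, 5 were higher and 1 was lower after DMSO (median log2FC 1.81), and 4 and 1 after the combination. HMGA1, a chromatin protein that acts on growth genes, was 20.2-fold higher in SK-LMS-1 (adjusted p = 4.42e-09), PLAG1, an activator of the IGF2 promoter, was at 17.5 to 27.9 CPM against 0.0796 to 3.77 CPM (adjusted p = 0.0327), and IGF2BP1, a binder of IGF2 mRNA, was 9.01-fold lower (adjusted p = 5.96e-10).

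**Figure D4:**
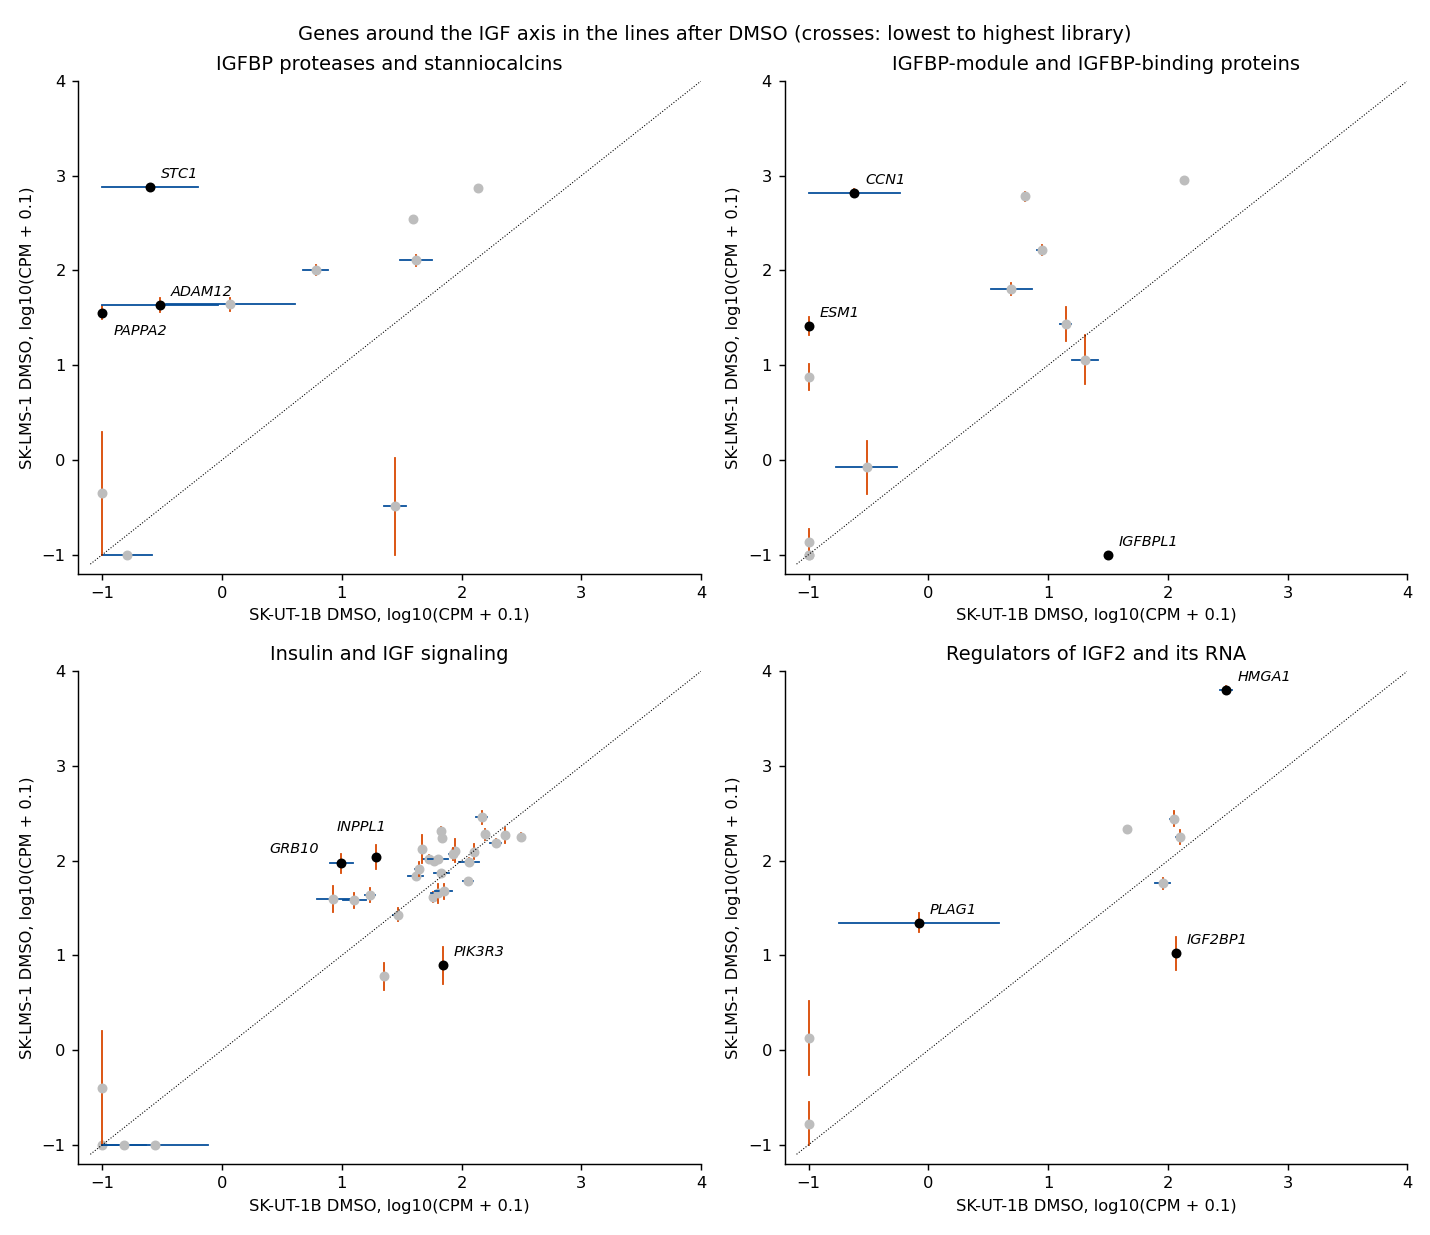
CPM after DMSO of 4 lists of genes around the IGF axis in SK-UT-1B (horizontal) and SK-LMS-1 (vertical), on log10(CPM + 0.1) axes. Each cross spans the lowest to the highest library (2 and 4), the point is its center, black points are the named genes, and the dotted line marks equal levels. STC1, CCN1, PAPPA2, and ESM1 lie far above the line, IGFBPL1 and IGF2BP1 lie below it, and most signaling genes lie near it.

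Of the 61 genes tested in these 4 lists, edgeR found 1 past both thresholds after MK-0752 in SK-LMS-1 (CCN2) and DESeq2 found 2 (CCN1 and CCN2). At an unadjusted p under 0.05 there were 8, and of all genes 0.251% passed both thresholds and 6.41% the unadjusted p with edgeR. After the combination in SK-LMS-1 edgeR and DESeq2 found 0, with 5 at an unadjusted p under 0.05, where the shares of all genes were 0.0237% and 4.33%. In SK-UT-1B edgeR found 0 and DESeq2 1 (CCN1, higher after the combination), with 13 at an unadjusted p under 0.05, where the shares were 0.559% and 10.5%. The lists were not tested against these shares, and nothing is read from them. CCN2, a matrix-associated relative of CCN1, fell from 161 and 170 CPM in DMSO set 2 to between 72.3 and 77.6 CPM after MK-0752 in SK-LMS-1 (log2FC -1.14, SE 0.18, adjusted p = 0.00488). The 4 genes next after it by edgeR's adjusted p, named after their values were seen, did not pass. They were CRIM1 (log2FC -0.60, adjusted p = 0.0738), ESM1 (log2FC -1.50, adjusted p = 0.150), CCN1 (log2FC -1.60, adjusted p = 0.160), and STC1 (log2FC -1.80, adjusted p = 0.187). STC1 and CCN1 stood at 214 to 227 CPM and 213 to 218 CPM after MK-0752 against 748 to 789 CPM and 603 to 704 CPM in DMSO set 2. In the combination libraries of SK-LMS-1, STC1 was at 555 to 614 CPM and CCN1 at 441 to 469 CPM. In SK-UT-1B, where both were at most 2.46 CPM, the values lay the other way, with a log2FC of 3.02 for CCN1 (adjusted p = 0.0701) and of 1.94 for STC1 (adjusted p = 0.342). The combination effects differed between the lines for 0 of the 61 genes with edgeR and for 1 (CCN1) with DESeq2, where edgeR found 0.232% of all genes. In SK-UT-1B, LRP1, a receptor for IGFBP3, passed on adjusted p alone (log2FC 0.66, SE 0.15, adjusted p = 0.0454).

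HES1, a transcription factor switched on by Notch, served as a readout of MK-0752. The authors sequenced only treatments that had lowered HES1 by quantitative PCR, so a fall of HES1 here is not independent of that choice. In SK-LMS-1 it fell from 21.5 to 25.5 CPM in DMSO set 2 to between 3.14 and 3.80 CPM after MK-0752 (log2FC -2.76, SE 0.51, adjusted p = 0.0153), and from 19.1 to 34.8 CPM in DMSO set 4 to between 1.35 and 3.82 CPM after the combination (log2FC -3.37, SE 0.52, adjusted p = 0.0227). In SK-UT-1B it was at 7.21 to 8.38 CPM after DMSO and at 2.27 to 2.51 CPM after the combination, with a log2FC of -1.70 (SE 0.49) whose adjusted p of 0.141 did not pass. HEY1 and NRARP, the other Notch targets listed, passed in no treatment comparison with edgeR. After MK-0752 the log2FC was -0.84 for HEY1 (adjusted p = 1.0) and -1.83 for NRARP (adjusted p = 0.806), both at most 2.26 CPM in DMSO set 2. HES1 was lower in every treated library than in the DMSO libraries of its line, while IGFBP5 was high in those of SK-LMS-1 and overlapped with DMSO in SK-UT-1B.

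The genes whose levels most resembled IGFBP5 over the 8 SK-LMS-1 libraries were found by Pearson correlation of log2(CPM + 1) among 9567 genes with a mean of at least 10 CPM. The libraries form treated and DMSO groups and share controls, so these values describe a pattern and carry no test. The highest were TUBA1A, an alpha tubulin (r = 0.988), TBX3, a developmental transcription factor (0.976), TRAPPC11, a vesicle tethering subunit (0.975), SQLE, an enzyme of cholesterol synthesis (0.975), and ATP6V1A, a subunit of the vacuolar proton pump (0.974). TUBA1A was at 188 to 194 CPM in DMSO set 4, 207 to 215 CPM in DMSO set 2, 266 to 278 CPM after the combination, and 292 to 305 CPM after MK-0752. This is the order of the groups in IGFBP5 itself, which follows from picking TUBA1A for its correlation with IGFBP5. The lowest were TNS1, a focal adhesion protein (-0.988), MICAL2, an actin-oxidizing enzyme (-0.978), and CALR, a chaperone of the endoplasmic reticulum (-0.977), of which CALR was at 1870 to 2070 CPM in the DMSO libraries and at 1120 to 1280 CPM in the treated ones.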

How the data were processed

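Bulk RNA of both lines gave 12 libraries. The authors trimmed reads with Trim Galore 0.3.7, aligned them to hg38 with STAR 2.7.9a, and deposited a table of raw gene counts, without normalization. The submitters' processing notes also name DESeq2 1.42.0. The library kit is stranded per the labels, and the annotation, strand setting, and removal of duplicates are not given in the sources used here. Of 60649 gene identifiers, 60507 matched GENCODE v44, used for coordinates, exon lengths, and overlaps. Members, lists, and tests were chosen with earlier results of these data known.

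Libraries formed 6 groups of 2 by line and treatment, with the SK-LMS-1 DMSO libraries split by set number. Between the lines, these 4 DMSO libraries were used together. edgeR 4.0.16 in R 4.3.3 fitted all groups with TMM and filterByExpr. A robust quasi-likelihood F test was used, with Benjamini-Hochberg adjustment over 21114 genes. Intervals of 95% used the t quantile for edgeR's degrees of freedom. Median log2FC of all genes lay within 0.1 of 0 under TMM and DESeq2 scaling. Within every group the counts of both libraries differed beyond sampling noise. The alternatives were DESeq2, its size factors in edgeR, a filter of 1 count in all, a filter on a mean of 50 counts, only the libraries compared, all 4 SK-LMS-1 DMSO libraries as control, replicate blocks (1 added after seeing the data), and each library left out in turn. All members were named. An item of the signaling list is not reported here and was left out of its counts. Of each list, up to 3 differentially expressed genes with the largest absolute log2FC whose higher group averaged 100 counts or more were named, and for IGFBP5 the 5 most and 3 least correlated genes.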

Additional observations from a re-analysis of the deposited data

Results flagged for a closer look

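IGF1 stood out because 1 of the 4 SK-LMS-1 DMSO libraries (set 2, replicate 1) was at 2.15 CPM while the other 3 were at 0. Its gap to the others exceeded Dixon's 95% critical value for 4 samples, as it must when the others are equal, and chance exceeds that value in about 1 of 20 groups, here over 8 members tested.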

How the results depend on the processing

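The number of members differentially expressed between the lines, without IGFBP5, was 7 after DMSO and 7 after the combination under 5 alternatives of each, and 7 to 7 and 6 to 7 with 1 library left out; without SK-LMS-1 combination replicate 1, IGFBP3 was not among them. For the combination in SK-UT-1B, it was 0 with edgeR and 1 (IGFBP6) with DESeq2, with no filter beyond 1 count, and with only the libraries of the comparison; it was 0 to 0 with 1 library left out. After MK-0752 the count was 1 (IGFBP5) under the 5 alternatives that kept DMSO set 2 as the control and 0 to 1 with 1 library left out, 0 without DMSO set 2 replicate 3. All 4 DMSO libraries as its control gave no value, since they bring in the set 4 values of IGFBP5. After the combination in SK-LMS-1 the count, without IGFBP5, was 0 under 7 alternatives, among them the replicate block on replicate numbers 1 and 2, and 0 to 0 with 1 library left out. The difference of the combination effects was met by 0 of the members other than IGFBP5, by 1 (IGFBP6) with no filter beyond 1 count, and by 0 to 0 with 1 library left out. SK-LMS-1 DMSO set 4 and SK-UT-1B DMSO also share the numbers 1 and 2, and a replicate block over them, added after seeing the data, left the DMSO line count at 7. Across 21114 genes, same-numbered libraries did not deviate together (r of -0.0155 between the combination and DMSO set 4 and of 0.00799 between the DMSO groups), so the numbers were not taken as pairs. In the other comparisons the treated and control groups, or the lines, share only 1 number, and no block was fitted. Of 242 values of single members under alternatives, 236 kept their direction and their call on both thresholds together. Of the rest, 2 lost the call, 4 gained it, and 0 reversed. Some of the 236 crossed a single threshold without a change of call. The values that gained it were IGFBP6 in SK-UT-1B (-1.35, -1.35, and -1.34) and in the difference of the effects (-1.0); the cause was not tested. IGFBP3 between the lines after DMSO ranged over log2FC 5.44 to 13.54 with 1 library left out, the highest without SK-UT-1B DMSO replicate 2, which leaves a library with 0 counts, and after the combination over 4.69 to 9.14. IGFBP7 after the combination ranged over 3.38 to 4.66, the highest without SK-UT-1B combination replicate 3. IGFBP4 between the lines after the combination reached adjusted p of 0.0567 under an alternative and 0.216 with 1 library left out. Libraries within a group ranged over 0 to 75 counts for IGF1 and, in SK-UT-1B, over 0 to 39 for IGFBP3, and the cause was not tested.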
